A study of Mus musculus with 4 samples.

Results

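Plasmacytoid dendritic cells (pDC) were taken from single-cell RNA sequencing of CD45+ cells, that is leukocytes, sorted from the spinal cord of C57BL/6 mice. All mice had experimental autoimmune encephalomyelitis (EAE), an autoimmune inflammation of the central nervous system. On day 9 of disease induction an intracranial injection gave control mice Ctrl MO and treated mice Reg1-MOs, and the tissue was taken on day 16. The labels spell out neither MO, taken here to mean morpholino, nor Reg1, taken to mean the RNA-degrading enzyme Regnase-1 (gene Zc3h12a). Each group had 2 libraries, named here control 1, control 2, Reg1-MO 1 and Reg1-MO 2. The labels do not say whether the libraries of a group came from separate animals or pools, so p-values measure the spread between these libraries only, which may be technical. All mice were immunised, and no library of uninflamed spinal cord was used, so every comparison is within EAE.

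Cells were kept with at least 500 unique molecular identifiers (UMIs, counted transcripts), at least 200 genes and at most 10% of UMIs from mitochondrial genes. A kept cell was taken as a pDC when it held at least 3 UMIs of Siglech, at least 1 of Ly6d, fewer than 5 in sum over the microglia genes Sparc, P2ry12, Tmem119 and Crybb1, and 0 of Cd3e. The cells were thus selected on their measured UMIs of these genes. The rule chose 287 of the 28598 kept cells. They were 44 of 8081 cells in control 1, 30 of 6632 in control 2, 154 of 8715 in Reg1-MO 1 and 59 of 5170 in Reg1-MO 2. Siglech and Ly6d levels, and the whole RNA profile of the chosen cells against the others, follow from this choice and are described without a test.

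pDC circulate in blood and lymphoid organs and enter inflamed tissue. They sense RNA and DNA taken up into endosomes through Toll-like receptors 7 and 9, which signal through MYD88 to the transcription factor IRF7, and they are known for fast, large secretion of type I interferons. Interferon binds the receptor IFNAR1 and IFNAR2, and the signal acts on an interferon-stimulated response element (ISRE) in the promoters of induced genes. The transcription factor TCF4 holds the pDC identity, while its inhibitor ID2 favours conventional dendritic cells.

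The promoters of 4 interferon-induced genes that mark the range of levels found in these cells are shown here, to relate the counts given further on to the regulatory letters. The sequences are from RefSeq on GRCm38.p6, which has the coordinates of mm10, and each is written on the gene's strand. Capitals mark the ISRE letters, which are GAAA, any 2 bases and GAAA again, or in reverse TTTC, any 2 bases and TTTC. Both strands were searched, and matches may overlap. The stretches end at the annotated transcript start, except that of Ifitm3, which runs 120 bases before to 30 after it.
Bst2, chr8:71537473-71537632, minus strand: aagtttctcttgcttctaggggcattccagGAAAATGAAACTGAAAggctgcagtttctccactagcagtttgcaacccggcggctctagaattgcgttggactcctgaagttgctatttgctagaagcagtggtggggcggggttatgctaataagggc
Isg15, chr4:156200819-156200978, minus strand: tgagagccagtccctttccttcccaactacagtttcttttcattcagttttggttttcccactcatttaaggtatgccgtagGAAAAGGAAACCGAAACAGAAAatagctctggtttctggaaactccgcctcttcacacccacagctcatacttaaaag
Ifitm3, chr7:141010715-141010864, minus strand: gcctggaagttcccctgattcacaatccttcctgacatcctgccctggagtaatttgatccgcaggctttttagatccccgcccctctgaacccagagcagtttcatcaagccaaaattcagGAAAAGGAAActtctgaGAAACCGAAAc
Ifit3, chr19:34583369-34583528, plus strand: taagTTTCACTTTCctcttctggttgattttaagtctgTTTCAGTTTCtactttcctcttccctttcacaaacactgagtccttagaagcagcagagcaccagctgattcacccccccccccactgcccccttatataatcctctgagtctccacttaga
Isg15 held 3 overlapping matches and each of the other 3 genes 2 matches. In windows of 300 bases, from 250 before to 50 after a transcript start, the letters were present in 18 of the 29 interferon-induced genes of a list of 38 that matched RefSeq, which is 62.1%. Over all 27025 genes with a window the share was 3.99%. It was 0 of 7 matched MHC class II genes, 3 of 15 MHC class I genes and 2 of 25 pDC identity genes. A match is a run of letters and not evidence of binding.

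The chosen cells had the transcripts by which pDC are known. Tcf4, Bst2 and Irf8 had a UMI in 100% of 267 chosen cells (the other 20 are described below). Cox6a2, a cytochrome oxidase subunit known as a pDC marker, was present in 97.4%, the gut-homing chemokine receptor Ccr9 in 94.8% and the lectin-like receptor Klra17 in 62.2%. Levels are given in CPM, the UMIs of a gene summed over the cells of a library and scaled to the same total for every library. Over all 287 cells Tcf4 stood at 2982 CPM in control 1, 3118 in control 2, 2926 in Reg1-MO 1 and 3780 in Reg1-MO 2, against 110 to 164 in all other kept cells. Irf8, a transcription factor of the dendritic lineage, stood at 1722, 2554, 2496 and 2249 CPM in the same order, against 154 to 343 elsewhere. Among markers of other lymphocytes Cd79a, a part of the B cell receptor, was at 0 UMIs, while Cd79b, another part, had a UMI in 26.6% of the 267 cells. The NK genes Ncr1, Klrb1c, Prf1 and Eomes were at 0, and the NK list of 8 summed to 0, 2.86, 2.25 and 2.76 CPM. In all other kept cells that list summed to 303, 215, 352 and 242 CPM. Cd3e was at 0 by the rule. The T marker list summed to 263, 321, 342 and 379 CPM against 1047, 699, 1118 and 1143 in all other kept cells. The B marker list, which includes immunoglobulin light chain genes, summed to 133, 218, 280 and 232 CPM against 217, 971, 35.2 and 571 in all other kept cells. The plasma cell list summed to 430, 418, 568 and 464 CPM against 252, 261, 215 and 397. It includes Jchain and Mzb1, which are also in the lymphoid list given below. The conventional dendritic marker list summed to 822, 979, 944 and 938 CPM, against 452, 427, 600 and 552 in all other kept cells. In cells gated as conventional dendritic it summed to 1083, 806, 1749 and 1817 CPM.

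**Figure D1:**
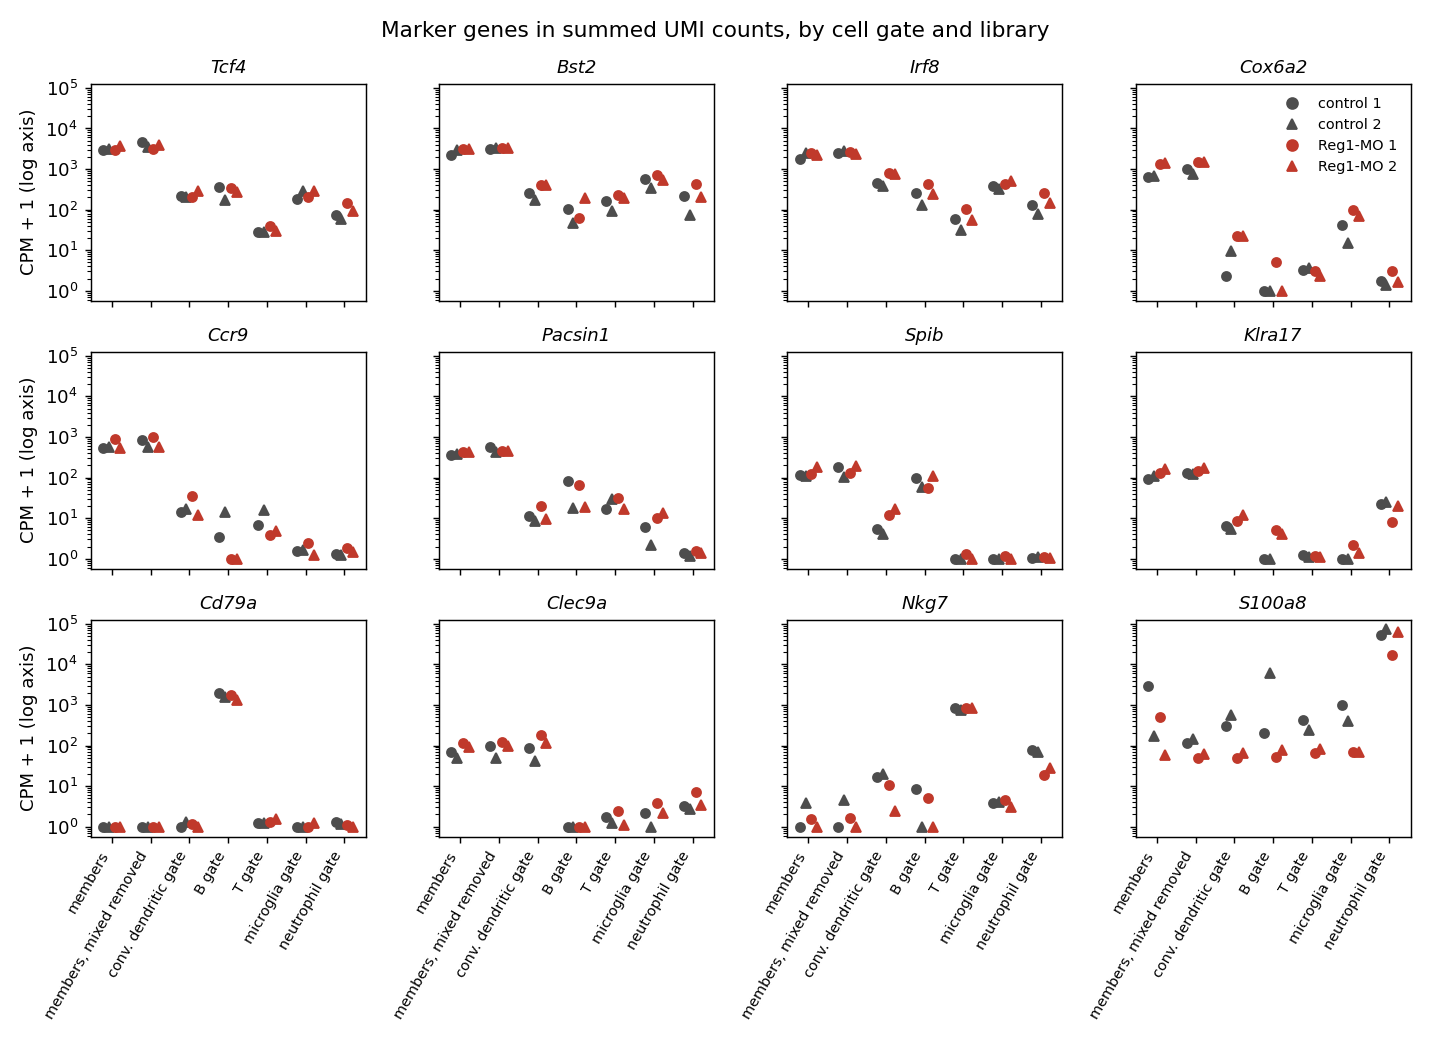
Level of 12 marker genes, in CPM with 1 added (log axis), by library, in the chosen cells (members), in the chosen cells without the mixed ones, and in cells gated as conventional dendritic, B, T, microglia or neutrophil. Tcf4, Bst2 and Irf8 lie above 1700 CPM in the chosen cells of every library, Cd79a is at 0 there, and the neutrophil gene S100a8 is highest in control 1 until the mixed cells are removed.

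Transcripts of neutrophils and of macrophages and monocytes were present as well. Summed over 26 marker genes of those cells, 20 of the 287 chosen cells held 72 to 2900 UMIs (median 384), and the other 267 held 0 to 29 (median 8), of which 5 were at 20 or more. The limit of 30 UMIs that divides them was chosen after the values were seen. The 20 cells, called mixed here, had a median of 21421 UMIs and a highest of 115364, against 11000 and 23862 in the rest. They were 6 and 4 cells of the controls and 8 and 2 of the Reg1-MO libraries, yet held 42.3% of the summed UMIs in control 1, 17.0% in control 2, 11% in Reg1-MO 1 and 7.65% in Reg1-MO 2. The 35 genes of the pDC identity list, which holds the rule genes Siglech and Ly6d, took a median of 2.01% of the UMIs of a mixed cell and 3.69% of those of another chosen cell. Without those 2 genes the medians were 1.84% and 3.14%, still within cells chosen for being pDC. Whether a mixed cell is a doublet was not tested. Scrublet, a doublet caller, placed 15 of the 287 chosen cells among its highest scores, 2, 1, 10 and 2 in control 1, control 2, Reg1-MO 1 and Reg1-MO 2. Those of control 1, control 2 and Reg1-MO 2 were all mixed cells, while Reg1-MO 1 also had some that were not. The mixed cell with 115364 UMIs, in control 1, was not among them. The neutrophil markers summed to 6573, 581, 1242 and 207 CPM in control 1, control 2, Reg1-MO 1 and Reg1-MO 2 with the mixed cells, and to 363, 452, 134 and 200 CPM without them. The macrophage and monocyte markers fell from 4765, 4865, 2627 and 1266 CPM to 424, 455, 638 and 436 CPM. The mixed cells were thus a larger part of the control UMIs than of the Reg1-MO UMIs, and treatment results are given with all 287 cells and with the 267.

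**Figure D2:**
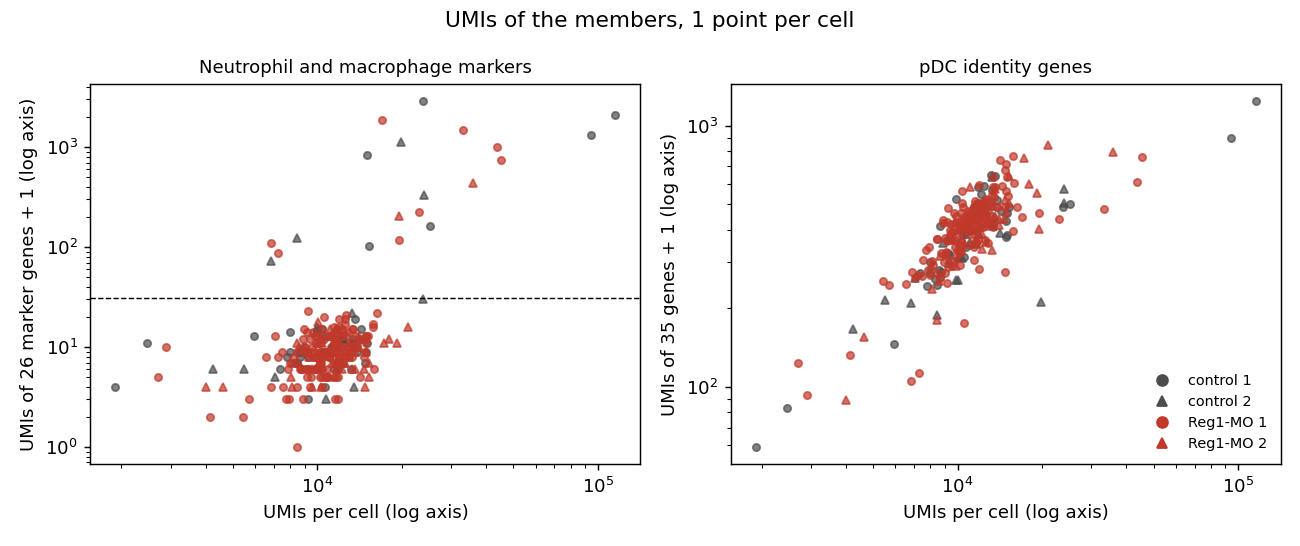
Each point is 1 of the 287 chosen cells (members), with its total UMIs on the horizontal log axis and, with 1 added, its UMIs of 26 neutrophil and macrophage genes (left) or of 35 pDC identity genes (right) on the vertical log axis. The dashed line marks 30 UMIs: 20 cells lie above it, between 72 and 2900, and the other 267 hold 29 or fewer.

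The median depth of the chosen cells was alike in the 4 libraries. A chosen cell had a median of 11367 UMIs in control 1, 10908 in control 2, 10876 in Reg1-MO 1 and 11681 in Reg1-MO 2, with median numbers of genes between 3435 and 3594 and median mitochondrial shares between 3.90% and 4.37%. Summed over the chosen cells, the libraries held 683674, 349232, 1777932 and 724837 UMIs. No cell barcode was shared between libraries among the chosen cells, and 10 to 75 were shared between pairs of libraries among all kept cells. At the edge of the rule, 7 chosen cells held exactly 3 UMIs of Siglech and 7 exactly 1 of Ly6d. Just outside it, 4 cells held 2 UMIs of Siglech and met every other limit, and 26 cells failed on Ly6d alone. A further 2648 cells had at least 3 UMIs of Siglech together with the microglia genes, which is why Siglech alone does not define pDC in the spinal cord.

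Further genes had a high level in the chosen cells against all other kept cells summed. Described here are the 25 with the highest ratio of their lowest level over the 4 libraries to their highest level in all other kept cells, with at least 50 CPM in every library and the genes of the rule left out. These ratios ran from 33.3 to 259. Dntt, which encodes the terminal transferase that adds nucleotides to rearranging antigen receptor genes, led at 360, 515, 354 and 302 CPM in control 1, control 2, Reg1-MO 1 and Reg1-MO 2, against at most 1.17 elsewhere, and had a UMI in 83.1% of the 267 cells. Grm8, a metabotropic glutamate receptor, stood at 332, 398, 564 and 966 CPM, against at most 2.08 elsewhere. Cacna1e, a calcium channel subunit, stood at 319, 530, 430 and 544 CPM, and its level in cells chosen for B cell genes was 149 to 239 CPM. Bcl11a, a transcription factor of pDC and B cells, stood at 740, 830, 690 and 753 CPM against 7.93 to 13.7 elsewhere. The receptor Cd300c, the sodium pump subunit Atp1b1, the heparan sulfotransferase Hs3st1, the cadherins Cdh5 and Cdh22 and the kinases Ddr1 and Fgfr1 belonged to the same 25 genes. Some were also found in B cells, which are few among the other cells. Hs3st1 stood at 123, 146, 136 and 124 CPM in the chosen cells and at 155, 143, 96.4 and 20.8 in gated B cells. Fcrla, also of the 25, stood at 180, 344, 393 and 320 CPM in the chosen cells and at 217, 169, 302 and 178 in gated B cells. Bcl11a stood at 187 to 254 in gated B cells, below its level in the chosen cells. Of these genes 6 were also in the pDC identity list of 35. The lymphoid genes reported in pDC, a list of 17 with Dntt, Ighm, Blnk and Cd8a, summed to 4612, 6208, 7587 and 7306 CPM, against 411 to 593 in all other kept cells. That sum includes Ly6d, a gene of the rule, and without it was 2592, 3814, 3592 and 3525 CPM against 405 to 583. Rag1 and Rag2, the recombinase genes, were at 0.

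Chosen cells varied in depth and in single genes. Total UMIs ran from 1905 to 115364 per cell, and to 23862 in the 267. Siglech ran from 3 to 54 UMIs per cell (median 17), Ly6d from 1 to 180 (median 37) and Tcf4 from 3 to 105 (median 36). Ly6d had a median of 22 UMIs per cell in control 1 and 22.5 in control 2, and of 42.5 in Reg1-MO 1 and 32 in Reg1-MO 2, which the rule itself touches and which was not tested. Cell cycle genes, a list of 20, had a median of 7 UMIs per cell in the 267 cells and a highest of 350. The interferon-induced list had a median of 108 UMIs per cell in the 267 cells and ran from 10 to 463.

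Type I and III interferon transcripts were all but absent from the counts. Over 20 ligand genes the 287 cells held 3 UMIs of 3535675, 1 of Ifnk and 2 of Ifnl2, all in Reg1-MO 1. A count of 0 for any single ligand allows up to 0.848 CPM over the 287 cells, counting error only. Many of the ligands are Ifna genes, near-identical copies of each other, whose counts are uncertain. All other kept cells held 65 ligand UMIs of 477477156, 45 of them of Ifnb1. These are levels on day 16 in sorted cells, and earlier times were not measured.

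Of the endosomal receptors Tlr7 was found in most chosen cells and Tlr9 in few. Tlr7, the endosomal receptor for single-stranded RNA, stood at 79.0, 68.7, 94.5 and 95.2 CPM in control 1, control 2, Reg1-MO 1 and Reg1-MO 2 over all 287 cells, against 33.7 to 55.8 in all other kept cells, and had a UMI in 57.3% of the 267, against 1.49% to 3.25% of T cells. The levels of Tlr9, the receptor for DNA, were 2.93, 2.86, 1.69 and 2.76 CPM from 8 UMIs in all, and 2.25% of the 267 cells had 1. Tlr8 was at 0 in the 267 cells. Unc93b1, which carries these receptors to the endosome, stood at 661, 719, 890 and 901 CPM against 324 to 529 elsewhere. Normalised Tlr7 levels of the 2 groups overlapped in the 267 cells. Of 24 genes of the sensing list 22 could be tested between the groups over all 287 cells and 0 were called. Their median log2 fold change was 0.06, against -0.01 over all genes tested.

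The receptors for type I interferon were high and the receptor for type III was not seen. Ifnar1 stood at 192, 269, 326 and 196 CPM over the 287 cells, against 45.9 to 68.9 in all other kept cells. Ifnar2 stood at 509, 662, 714 and 542 CPM against 182 to 222. Ifnlr1 was at 0 UMIs, which allows up to 0.848 CPM. Neither Ifnar1 nor Ifnar2 separated the groups.

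The sum of interferon-induced genes was larger in the chosen cells than elsewhere in each library, and 3 genes made up most of it. The summed level over 38 genes was 8511, 7562, 11146 and 9617 CPM in control 1, control 2, Reg1-MO 1 and Reg1-MO 2, against 5682, 2726, 7285 and 6371 CPM in all other kept cells of the same libraries. Bst2, which encodes tetherin, a surface protein of pDC that also holds budding virus, stood at 2277, 2932, 3166 and 3068 CPM. Ly6a stood at 1970, 1529, 3487 and 2231 CPM and Ly6e at 1489, 1721, 1978 and 1777 CPM. Bst2 and Ly6a are also in the pDC identity list. Classical sensors of interferon exposure were low: Ifit3 had 6 UMIs over the 267 cells although its promoter holds the ISRE letters shown above, while Isg15 had 193, Ifitm3 192 and Bst2 9647. In control 2 the sum was the lowest of the 4 libraries both in the chosen cells and in the other cells.

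pDC made up a larger part of the kept CD45+ cells in each Reg1-MO library than in either control. They were 0.544% of cells in control 1 (95% Wilson interval 0.406 to 0.730), 0.452% in control 2 (0.317 to 0.645), 1.77% in Reg1-MO 1 (1.51 to 2.07) and 1.14% in Reg1-MO 2 (0.886 to 1.47), where the intervals cover counting error only. The intervals of the 2 groups did not overlap. The means were 0.498% ± 0.0651 (SD, n = 2) and 1.45% ± 0.443 (SD, n = 2), a ratio of 2.92, which ran from 2.10 to 3.91 over pairs of libraries. A two-sided exact permutation test over the libraries gave p = 0.333, the smallest value that 2 libraries against 2 allow, so the test cannot pass 0.05. Neutrophils were a larger part of the control libraries, with 2842 and 3066 cells against 1145 and 1362 by a gate on Retnlg, Cxcr2 and Csf3r. With those cells out of the total, pDC were 0.840%, 0.841%, 2.03% and 1.55%. With every cell thinned to 3000 UMIs and shallower cells left out, the shares were 0.382%, 0.395%, 1.40% and 0.862%, and without the mixed cells 0.470%, 0.392%, 1.68% and 1.10%. A share of sorted cells cannot tell a rise in pDC from a fall in other cells.

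**Figure D3:**
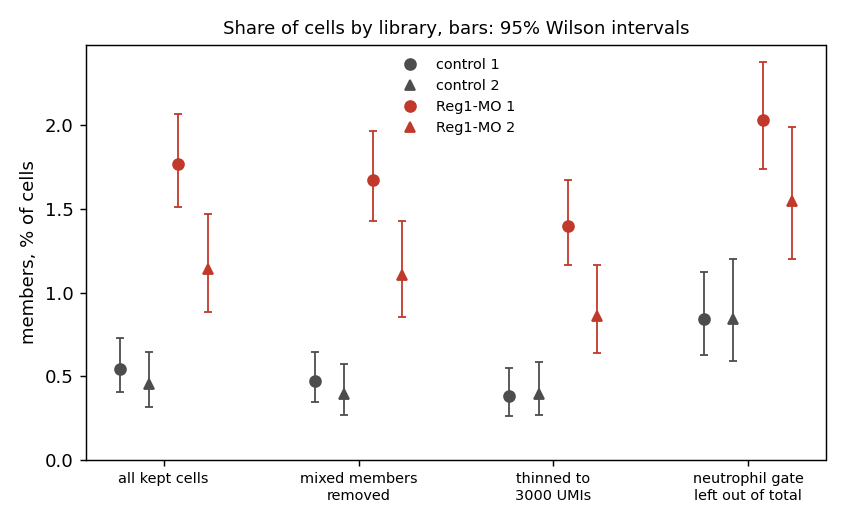
Share of cells that met the pDC rule, in percent, in each library, among all kept cells, with mixed cells removed, with cells thinned to 3000 UMIs, and with neutrophils out of the total. Bars are 95% Wilson intervals, and both Reg1-MO points lie above both control points in each setting.

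Reg1-MO was first compared with control over all 287 cells. UMIs were summed per library, and the 7616 genes with enough counts were tested with the quasi-likelihood test of edgeR with Benjamini-Hochberg adjustment. Levels in the treatment comparison are normalised CPM (scaled by TMM factors), and fold changes are log2, Reg1-MO over control. The test called 7 genes lower, 0.0919% of those tested, and 0 higher (0%). An unadjusted p under 0.05 was reached by 667 genes, and DESeq2 called 23 lower and 11 higher. The groups did not overlap for 20.7% of genes with Reg1-MO higher and 19.7% with Reg1-MO lower, so a lack of overlap is common at this size. Without Reg1-MO 1, and likewise without Reg1-MO 2, no gene was called in either direction.

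The largest fall was in Chil3, a chitinase-like protein secreted by neutrophils and macrophages, at 2275 and 2606 normalised CPM in the controls and 62.0 and 62.6 in Reg1-MO (log2 fold change -5.29, SE 0.212, adjusted p 0.000117). Most of those counts came from the mixed cells, since without them Chil3 stood at 62.3 and 68.7 against 18.0 and 6.10 normalised CPM. In the 267 cells a UMI of Chil3 was found in 55.3%, 50%, 16.4% and 7.02% of cells of control 1, control 2, Reg1-MO 1 and Reg1-MO 2. T cells (at least 2 UMIs of Cd3e), which should lack it, had one in 47.9%, 50.7%, 17.4% and 7.36% at median depths of 7312 to 7813 UMIs per cell. The Chil3 shares of the 267 cells thus lay near those of T cells, and Chil3 is not read as expression there. What part of either share is background was not tested.

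Gda, a guanine deaminase, stood at 232 and 116 normalised CPM in the controls and 18.1 and 16.7 in Reg1-MO over the 287 cells. Wfdc17, a secreted myeloid protein, stood at 214 and 259 against 53.2 and 37.6, and Ier3, an early response gene, at 217 and 205 against 56.7 and 37.6. Gda and Wfdc17 had too few counts to be tested in the 267 cells, and Ier3 levels of the groups then overlapped. Hist1h2ap, a histone gene of dividing cells with near-identical copies, stood at 58.0 and 83.2 against 4.68 and 1.39, and was not called in the 267 cells (adjusted p 0.079). The remaining 2 of the 7 genes, Glis3 and Serinc5, were lower with and without the mixed cells.

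Glis3 (ENSMUSG00000052942, chr19:28258851-28680265 on GRCm38.p6), a zinc finger transcription factor, had the smallest adjusted p of all genes tested in the 267 cells. It stood at 165 and 193 normalised CPM in control 1 and control 2 and at 10.5 and 9.74 in Reg1-MO 1 and Reg1-MO 2 over the 287 cells (log2 fold change -4.10, SE 0.271, adjusted p 0.0024). Without the mixed cells the levels were 249, 224, 12.0 and 7.62 (log2 fold change -4.47, SE 0.285, adjusted p 2.95e-05). A UMI was found in 57.9% and 42.3% of control cells and 7.53% and 7.02% of Reg1-MO cells of the 267, against 1.97% to 4.38% of T cells. At 3000 UMIs per cell the shares of the 267 were 33.3%, 34.6%, 1.39% and 5.26%. Glis3 was thus found in a far larger share of control pDC than of T cells, while the Reg1-MO shares lay nearer to those of T cells. Leaving out either Reg1-MO library over the 287 cells left no call (adjusted p 0.898 without Reg1-MO 1 and 0.766 without Reg1-MO 2), whereas in the 267 cells the call stood without any 1 of the 4 libraries (largest adjusted p 0.0066). Each fit that leaves out a library has 1 library in that group, which is assumed to vary like the 2 of the other group.

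Serinc5 (ENSMUSG00000021703, chr13:92611138-92711947), a membrane protein that restricts retroviruses, stood at 152 and 166 normalised CPM in the controls and 45.0 and 44.5 in Reg1-MO over the 287 cells. The log2 fold change was -1.82 (SE 0.218, adjusted p 0.0487). Without the mixed cells it stood at 244, 188, 48.6 and 45.7 (log2 fold change -2.20, SE 0.226, adjusted p 0.0025). Cells with a UMI were 71.1% and 80.8% of control cells and 33.6% and 26.3% of Reg1-MO cells of the 267, against 6.35% to 7.79% of T cells. Without Reg1-MO 1 the Serinc5 call was lost in both sets (adjusted p 0.898 in the 287 and 0.11 in the 267), and without Reg1-MO 2 in the 287 (adjusted p 1.00).

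The same comparison was made without the mixed cells. In the 267 cells 6696 genes were tested with edgeR and 4 were called higher (0.0597%) and 5 lower (0.0747%, and 0.134% in either direction), with 754 at an unadjusted p under 0.05. The groups did not overlap for 21.3% of genes with Reg1-MO higher and 21.6% with Reg1-MO lower. The higher genes were Ifitm3, Ifi30, Dynll1 and Cd8b1. The lower genes were Glis3, Serinc5, Cdk14, Fkbp5 and Fhit. Glis3 and Serinc5 were the 2 genes called in both the 287 and the 267 cells. Without Reg1-MO 1 the calls in the 267 cells were 0 higher and 2 lower, and without control 1 they were 31 and 61.

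Ifitm3 (ENSMUSG00000025492, chr7:141009590-141010744), an interferon-induced membrane protein that blocks virus entry, stood at 10.4 and 10.9 normalised CPM in the controls and 92.5 and 70.1 in Reg1-MO in the 267 cells (log2 fold change 2.95, SE 0.402, adjusted p 0.0196). Over all 287 cells the direction turned, at 529, 122, 219 and 199 (log2 fold change -0.69, adjusted p 0.763). Shares of the 267 cells with a UMI were 7.89%, 11.5%, 31.5% and 15.8%, below those of T cells in each library (51.0%, 41.3%, 52.8% and 36.4%). What part of either share is background was not tested. The 267 cells held 4, 3, 139 and 46 UMIs of Ifitm3 in control 1, control 2, Reg1-MO 1 and Reg1-MO 2. A single cell held 47 of those in Reg1-MO 1 and 37 in Reg1-MO 2. With the highest cell of each library left out of the count, plain CPM were 5.07, 6.90, 58.1 and 13.4, so the Reg1-MO 2 level rests mostly on 1 cell. Without Reg1-MO 1 the call was lost (adjusted p 0.17).

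Ifi30, the lysosomal thiol reductase that prepares antigens for MHC class II, stood at 254 and 242 normalised CPM in the controls and 638 and 509 in Reg1-MO in the 267 cells (log2 fold change 1.21, SE 0.184, adjusted p 0.0368). It had a UMI in 71.1%, 80.8%, 93.8% and 84.2% of the cells, against 23.8% to 37.0% of T cells. Without Reg1-MO 1 or without control 2 the adjusted p of Ifi30 rose to 0.20 and 0.075. Over the 287 cells Ifi30 stood at 497, 232, 676 and 558 and did not pass (adjusted p 0.58).

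Cd8b1, the beta chain of CD8, stood at 109 and 90.4 normalised CPM against 455 and 253 in the 267 cells (log2 fold change 1.84, SE 0.298, adjusted p 0.044). Cells with a UMI were 31.6%, 26.9%, 60.3% and 49.1% of the 267. T cells, some of which express the gene, had shares of 24.9% to 27.8%. Cd8a, whose product pairs with that of Cd8b1 and which some pDC are known to express, stood at 132 and 152 against 336 and 284 and missed the threshold (log2 fold change 1.14, adjusted p 0.054). T cell marker genes summed to 330, 331, 356 and 390 CPM in the 267 cells, with Cd3d, Cd3g, Trac and Trbc1 at 0 in both controls, and their part in the Cd8b1 result was not tested. Dynll1, a dynein light chain, stood at 270 and 152 against 539 and 631 (log2 fold change 1.43, SE 0.231, adjusted p 0.044). Without Reg1-MO 1 the adjusted p was 0.17 for both Cd8b1 and Dynll1, and without control 2 it was 0.089 for Dynll1.

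Cdk14, a cyclin-dependent kinase, stood at 140 and 213 normalised CPM in the controls and 28.6 and 44.2 in Reg1-MO in the 267 cells (log2 fold change -2.33, SE 0.301, adjusted p 0.016). Cells with a UMI of Cdk14 were 39.5%, 65.4%, 14.4% and 21.1%, against 1.66% to 4.2% of T cells. Fkbp5, a co-chaperone of the glucocorticoid receptor that glucocorticoids induce, stood at 558 and 662 against 231 and 119 (log2 fold change -1.74, SE 0.257, adjusted p 0.033), and kept its call without any 1 library (largest adjusted p 0.025). Its levels in all other kept cells were 169, 236, 87.5 and 63.0, so the same direction was present outside pDC. Fhit, a nucleotide hydrolase, stood at 226 and 130 against 28.6 and 56.4 (log2 fold change -2.20, SE 0.347, adjusted p 0.044). Without Reg1-MO 1 the Cdk14 and Fhit calls were lost (adjusted p 0.17 and 0.25).

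**Figure D4:**
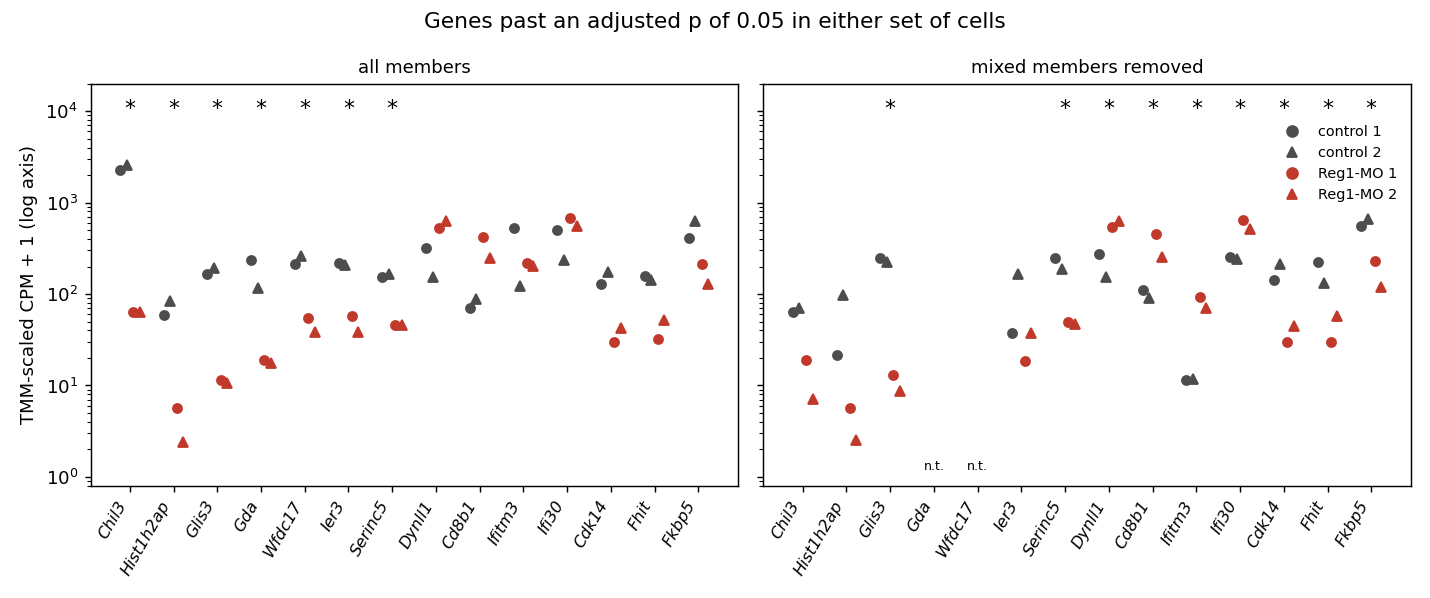
Normalised CPM with 1 added (log axis) of the genes called in either set of chosen cells, by library, over all 287 cells (left) and without the 20 mixed cells (right). An asterisk marks an adjusted p under 0.05 from edgeR and n.t. a gene not tested in that set: Glis3 and Serinc5 carry the asterisk in both.

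Most tested interferon-induced genes were higher in Reg1-MO, and with the mixed cells out Ifitm3 was the single one called. Without the mixed cells 20 of 38 genes could be tested, 17 had a positive log2 fold change and the median was 0.64, against 0.00 over all genes tested. The groups did not overlap for 12 of the 20 with Reg1-MO higher and for 1, Stat2, with Reg1-MO lower, against 21.3% and 21.6% of all genes. Over all 287 cells 26 genes were tested, 0 were called, 18 were positive and the median was 0.19. The 18 genes that could not be tested in the 267 cells, among them Ifit1, Ifit3, Oas1a and Rsad2, held 0 to 94 UMIs each over the 287. A gene needed enough counts in 2 libraries, so it could enter the test through Reg1-MO alone. Ifitm3, with 4 and 3 UMIs in the controls, entered in this way. The numbers of higher genes and the medians thus depend in part on this filter and are described without a test.

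Irf7, the factor that drives interferon transcription and is itself induced, stood at 158 and 112 normalised CPM in the controls and 268 and 248 in Reg1-MO in the 267 cells (log2 fold change 0.91, SE 0.208, adjusted p 0.097). Isg15, a ubiquitin-like protein, stood at 38.9 and 0 against 73.9 and 102 (adjusted p 0.22), and its share of cells with a UMI, 18.4%, 0%, 22.6% and 22.8%, was near that of T cells (19.0%, 12.1%, 21.9% and 24.4%) except in control 2. Ifi27l2a stood at 532 and 242 against 714 and 572, and Ifi35 at 70.1 and 36.2 against 116 and 122. Bst2 did not separate the groups, at 3231 and 3375 against 3544 and 3273. For Irf7, Isg15, Ifi27l2a and Ifi35 control 2 was the lowest library. Without it the list's median over the 287 cells was -0.39, and without control 1 it was 0.90. Over the 267 cells the median was 0.38 without control 2 and 1.51 without control 1.

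**Figure D5:**
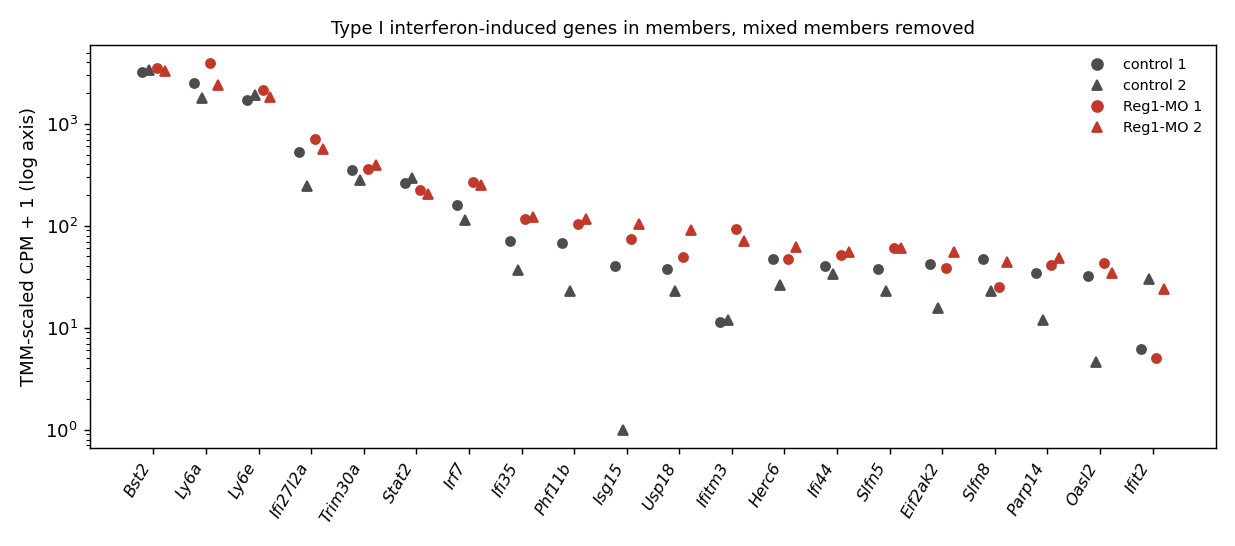
Normalised CPM with 1 added (log axis) of the 20 tested interferon-induced genes in the 267 chosen cells that were not mixed, by library. For 12 genes both Reg1-MO libraries lie above both controls, and control 2 is lowest for Irf7, Isg15, Ifi27l2a and Ifi35.

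Interferon signalling genes did not pass the test. Stat2 stood at 262 and 293 normalised CPM in the controls and 226 and 206 in Reg1-MO in the 267 cells. The feedback inhibitor Socs3 stood at 363 and 695 against 246 and 250 (log2 fold change -1.07, adjusted p 0.11), and Irf1, a factor downstream of interferon gamma, at 586 and 760 against 380 and 387 (log2 fold change -0.80, adjusted p 0.084). Of 16 genes of receptors and early signalling 15 were tested and 0 were called in either set, with medians of 0.11 in the 287 and 0.29 in the 267 cells. Above 0 were 9 of the 15 in the 287 and 10 in the 267. In the 267 cells 6 were higher without overlap and 3 lower, against 21.3% and 21.6% of all genes. Among 22 interferon-gamma response genes 0 were called in either set, with medians of 0.10 over 16 tested in the 287 cells and 0.52 over 11 in the 267. Above 0 were 10 of the 16 and 8 of the 11. In the 267 cells 5 were higher without overlap and 2 lower, and in the 287 cells 1 and 2.

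Antigen presentation genes were higher without overlap in Reg1-MO for 6 of 9 tested MHC class II genes and 11 of 17 class I and peptide loading genes, in both sets, with 0 called in either. Over all genes the share higher without overlap was 20.7% in the 287 and 21.3% in the 267 cells. Cd74, the class II invariant chain, stood at 4116 and 4132 normalised CPM in the controls and 7119 and 6748 in Reg1-MO in the 267 cells (log2 fold change 0.75, SE 0.132, adjusted p 0.056). H2-DMb1, which helps load peptides, stood at 127 and 112 against 252 and 224 (log2 fold change 0.99, adjusted p 0.079), and the class II chain H2-Aa at 1264 and 1418 against 1882 and 1655. The immunoproteasome subunit Psmb9 stood at 221 and 185 against 374 and 311 (log2 fold change 0.75, adjusted p 0.15). The medians in the 267 cells were 0.37 for class II and 0.42 for class I, against 0.00 over all genes tested. Class II transcripts in T cells, which should hold few, summed to 1085, 272, 3513 and 1540 CPM in control 1, control 2, Reg1-MO 1 and Reg1-MO 2, a difference in the same direction, and the part of such background in the pDC values was not tested. In total the class II genes summed to 7031, 6964, 12358 and 10797 CPM over the 287 cells, and in conventional dendritic cells (at least 3 UMIs in sum of Xcr1, Clec9a, Cd209a and Flt3) to 19531, 12220, 39400 and 34983 CPM.

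Among costimulation and lineage genes Cd86 and Id2 missed the threshold narrowly in the 267 cells. Over the 287 cells their adjusted p in edgeR was 0.43 and 0.25. Cd86, a ligand that costimulates T cells, stood at 192 and 119 normalised CPM in the controls and 39.3 and 61.0 in Reg1-MO in the 267 cells (log2 fold change -1.73, SE 0.301, adjusted p 0.054). Id2, the inhibitor of TCF4, stood at 51.9 and 65.1 against 9.32 and 13.7 (log2 fold change -2.39, SE 0.411, adjusted p 0.054). Il12a, a subunit of interleukin 12, stood at 138 and 213 against 89.2 and 83.8 (adjusted p 0.12). Of 13 costimulatory and coinhibitory ligands 4 were tested in the 267 cells, 2 were above 0, 0 were called and the median was -0.11. Of 19 cytokines and chemokines of dendritic cells 4 were tested, 2 were above 0, 0 were called and the median was 0.03. Over the 287 cells 0 of 5 tested ligands and 1 of 9 tested cytokines and chemokines were above 0, with 0 called. Dntt stood at 555 and 582 against 389 and 323 (log2 fold change -0.67, adjusted p 0.14). Of 22 transcription factors of dendritic cells 18 were tested and 0 called, with a median of -0.19 in the 267 cells, against -0.09 over 19 genes in the 287. Of the 33 pDC identity genes other than Siglech and Ly6d 0 were called in either set. Their median was 0.23 in the 287 cells, with 25 above 0, and -0.07 in the 267, with 15 above 0. Cox6a2 of that list stood at 1038 and 803 against 1539 and 1555 (log2 fold change 0.74, adjusted p 0.084).

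No secretory pathway or immediate early gene passed the test in the 267 cells. Of 19 tested genes of the secretory pathway and the unfolded protein response 13 were higher without overlap in Reg1-MO in both sets (over all genes 20.7% in the 287 and 21.3% in the 267), 0 were called, and the median was 0.33 in both. In the 267 cells 4 of the 19 had a negative fold change. Hsp90b1, the chaperone that folds Toll-like receptors, stood at 524 and 459 normalised CPM in the controls and 670 and 819 in Reg1-MO in the 267 cells. Of immediate early genes 12 were tested in the 267 cells, of which 4 were above 0, 0 were called and the median was -0.27. Over the 287 cells the median was -0.56 and 0 of 14 were called. Jun stood at 304 and 478 against 194 and 194 (log2 fold change -0.99, adjusted p 0.084), and Btg2, an antiproliferative early gene, at 234 and 329 against 142 and 127 (log2 fold change -1.04, adjusted p 0.079). For glycolysis and hypoxia genes the median turned from -0.50 in the 287 cells to 0.12 in the 267, with 0 called in either.

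Zc3h12a (ENSMUSG00000042677, chr4:125118414-125127881), the gene that Reg1 is read to mean, stood at 64.0 and 95.1 normalised CPM in control 1 and control 2 and 51.5 and 64.0 in Reg1-MO 1 and Reg1-MO 2 over the 287 cells. The groups overlapped there (log2 fold change -0.44, adjusted p 0.722). Without the mixed cells it stood at 70.1, 90.4, 52.6 and 57.9 (log2 fold change -0.53, adjusted p 0.49). A UMI was found in 42.1%, 50%, 37.0% and 49.1% of those cells. The labels do not give the kind of morpholino or its target site, and so not whether its target should fall or rise. These levels thus do not check the treatment. Among 20 genes reported as Regnase-1 targets 0 were called in either set, with medians of -0.22 over 12 tested in the 287 cells and -0.20 over 9 in the 267.

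The difference between the treatment effect in pDC and that in all other kept cells was tested in edgeR with the library as a block. Over the 287 cells 3 of 7616 genes were called (0.0394%): Chil3, Cdk14 and Glis3, all with a more negative effect in pDC. Without control 1 the number was 1, and without either Reg1-MO library it was 0. In the 267 cells 3 of 6696 were called (0.0448%): Cdk14, Glis3 and Klk1. Glis3 stood at 30.7, 37.7, 15.9 and 21.3 normalised CPM in all other kept cells, and the difference of effects was -3.56 (log2, SE 0.366, adjusted p 0.023). Cdk14 stood at 49.6, 44.9, 85.7 and 104 in the other cells, the opposite direction to pDC, and its difference was -3.31 (SE 0.300, adjusted p 0.017). The other cells are a mixture whose makeup differed between the groups, as the neutrophil numbers above show, and the part of that in these differences was not tested. Against conventional dendritic cells alone, over the 287 cells, neither Glis3 (-2.55, adjusted p 0.10) nor Cdk14 (-2.53, adjusted p 0.070) passed. Of the 7616 genes tested in that comparison 2 were called, both with a more positive effect in pDC. The difference from all other kept cells was also not called for Ifitm3, Irf7, Cd74 or Serinc5 in either set of chosen cells.

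Conventional dendritic cells of the same libraries, the closest cell type measured, had more calls by the same edgeR test. Of 10463 genes tested 334 were higher in Reg1-MO (3.19%) and 641 lower (6.13%), and the groups did not overlap for 30.7% of genes higher and 32.6% lower. More cells and UMIs stood behind these tests, with 134 to 318 cells per library. Of the 37 interferon-induced genes tested there 8 were called higher and 37 did not overlap, with a median log2 fold change of 1.42, and of 10 MHC class II genes 6 were called higher, with a median of 1.30. In all other kept cells the groups did not overlap for 27.5% of genes higher and 26.1% lower, and 0 of 16933 genes were called (0%), with 2872 at an unadjusted p under 0.05. The medians there were 0.67 for the interferon-induced and 0.99 for the MHC class II list. The difference of these list medians from those of pDC was not tested. The makeup of the conventional dendritic gate also differed between the groups: macrophage and monocyte markers summed to 13603, 19273, 6361 and 2932 CPM, neutrophil markers to 752, 1187, 119 and 221, and markers of migratory dendritic cells to 872, 326, 1834 and 3242. Their part in these changes was not tested. Irf7 stood at 128, 29.6, 273 and 219 normalised CPM in conventional dendritic cells of control 1, control 2, Reg1-MO 1 and Reg1-MO 2, where control 2 was again the lowest library.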

How the data were processed

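Single-cell RNA of sorted CD45+ spinal cord cells was measured in 4 libraries with 10x Chromium 3' chemistry, per the labels' protocols. The deposited files hold raw UMI counts per gene and cell over 32285 genes, and per the file headers the authors ran Cell Ranger 5.0.1. Seurat 4.0 and mm10 are named in the submitters' processing notes. For doublet removal before deposit, the sources used here give nothing. The files held 29379 barcodes, of which 28598 passed the limits on UMIs, genes and mitochondrial share. Counts of the chosen cells were summed per library, since cells are not replicates. Genes passing edgeR's filterByExpr (minimum count 10) were TMM-normalised and tested 2 against 2 libraries with glmQLFit and glmQLFTest (edgeR 4.0.16, R 4.3.3), with DESeq2 1.42.0 as an alternative and Benjamini-Hochberg adjustment. A gene was called at an adjusted p under 0.05. The difference of effects used all other kept cells of each library, with the library as a block. Shares of cells were compared with an exact permutation test. Scrublet was run through scanpy 1.11.5. The edgeR treatment test was tried on simulated data in which 200 genes were changed. Over all chosen cells it recovered 6% of 2-fold and 81% of 4-fold changes, with 0 and 9 false calls. Without the mixed cells it recovered 32.5% and 88.5%, with 5 and 11 false calls. Most 2-fold changes were thus missed in both sets, so 0 calls in a list does not exclude changes of that size.

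Treatment genes were chosen as up to 15 called genes in each direction, largest fold first, without overlap between groups and averaging 20 CPM or more. Where fewer than 5 were called, the 8 with the smallest p were added. Not all of these are described, among them Hmgcs1, Gngt2, Idi1 and Gapt. Genes of the lists outside this choice are also described, among them Cd86, Id2, Jun and Btg2. Interferon, sensing and receptor genes and Zc3h12a were named from lists. The members, lists and tests were chosen with earlier results of these data known, and the mixed cells were defined after seeing the data. Members of lists that share reads with near-identical copies (Hist1h2ap, Klk1, Ifna, Ifit and MHC genes) have uncertain counts. Alternatives were DESeq2, its size factors, no filter on counts, a replicate block, other limits on the rule, and leaving out each library.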

Additional observations from a re-analysis of the deposited data

Results flagged for a closer look

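The treatment effect differed between pDC and all other kept cells for 4 genes, by an edgeR test of the difference itself with Benjamini-Hochberg adjustment. Values are the log2 effect of Reg1-MO in pDC minus that in the other cells. Over all 287 chosen cells the difference was -2.57 for Chil3 (SE 0.213), -3.10 for Cdk14 (SE 0.270) and -3.19 for Glis3 (SE 0.280), each with an adjusted p of 0.0354. Without the 20 mixed cells it was -3.31 for Cdk14 (SE 0.300, adjusted p 0.0171), -3.56 for Glis3 (SE 0.366, adjusted p 0.0228) and -4.13 for Klk1 (SE 0.483, adjusted p 0.0415). Both control libraries were higher than both Reg1-MO libraries in the chosen cells for Chil3, Cdk14 and Glis3.

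For Chil3 the difference without the mixed cells was 0.45 (adjusted p 0.757). Klk1, a tissue kallikrein, stood at 130 and 97.7 normalised CPM in the controls and 258 and 171 in Reg1-MO in the 267 chosen cells (log2 fold change 0.92, adjusted p 0.198 in edgeR), so its negative difference is not a fall in pDC. It was near 0 in the other cells, at 0.0149, 0.0109, 0.614 and 0.362 in control 1, control 2, Reg1-MO 1 and Reg1-MO 2, so the difference rests on few counts there. The makeup of the other cells differed between the groups, and its part in these differences was not tested.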

How the results depend on the processing

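Over all 287 cells the number of genes called higher, 0 in the edgeR fit, was 11 with DESeq2, 67 with no filter on low counts, 46 with a replicate block, 4 without the Ly6d limit, 4 without the cells marked by Scrublet, 1 without cells holding markers of another class and 4 without the mixed cells. The number called lower, 7, was 23, 261, 195, 25, 73 and 3 under the first 6 of these settings. Leaving out cells holding markers of another class dropped 243 of the 287 cells and left 1035 genes to test, against 7616 in the edgeR fit. Leaving out 1 library gave 0 to 36 higher and 0 to 206 lower. Without the mixed cells, DESeq2 called 10 higher and 15 lower, and leaving out 1 library gave 0 to 31 higher and 2 to 61 lower. The number of genes whose effect differed from all other kept cells, 3, was 62 with DESeq2 and 0 to 2 with 1 library left out. The cause of these shifts was not tested. The median log2 fold change of the interferon-induced list, 0.19, ran from -0.39 to 0.90 with 1 library left out. The difference in pDC share, 0.956 percentage points, ran from 0.643 to 1.27 over all settings. Ifitm3, -0.69 over all 287 cells, was -1.34 without control 2, 0.79 without control 1, 2.95 without the mixed cells and 0.46 without cells over 2 times the median UMIs.

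The replicate numbers share no stated animal or batch. The deviations of same-numbered libraries had a correlation of 0.167 over genes in all 287 cells and 0.00829 in the 267, over 2 pairs. With 30 to 154 chosen cells per library and 2 libraries per group, genes of a few UMIs per library could not be tested.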
